A study of Mus musculus with 57 samples.

Results

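The genes described here encode the enzymes of adipocyte lipolysis, the proteins that switch them on or off, and the coat of the lipid droplet on which they act. They are Pnpla2, Lipe, Mgll, Abhd5, G0s2, Plin1, Plin2, Plin4, Plin5 and Cidec, 10 of the 52853 genes in the count tables, taken by gene symbol. RNA was sequenced from adipose tissue of male mice that carried R707W homozygously (KI) in Mfn2, the gene of a fusion protein of the outer mitochondrial membrane, and from wild-type littermates (WT). The change sits in the endogenous gene, was made by CRISPR-Cas9 in a single founder on a C57BL/6J background, and is carried in every cell of the animal, so that no adipose-specific promoter limits it. Inguinal white adipose tissue (WAT) came from 7 WT and 6 KI mice on chow and from 8 WT and 8 KI mice on a 45% kcal high-fat diet (HFD). Brown adipose tissue (BAT) came from 6 WT and 6 KI mice on HFD. Mice started at 5 weeks of age and were kept for 6 months on their diet, and WT mice carried no engineered allele.

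In adipocytes, triglyceride is hydrolysed in steps. Pnpla2 (adipose triglyceride lipase) removes the first fatty acid, Lipe (hormone-sensitive lipase) the next, and Mgll (monoglyceride lipase) the last, which leaves glycerol. Abhd5 (CGI-58) activates Pnpla2 and is held by Plin1 on the resting droplet until protein kinase A phosphorylates Plin1, while G0s2 binds and inhibits Pnpla2. Plin1 is the main coat protein of adipocyte droplets, Plin4 coats small nascent droplets in white fat, Plin2 is found on droplets of most cell types, and Plin5 is the coat protein of oxidative tissues, where it links droplets to mitochondria. Cidec (FSP27) exchanges lipid between droplets and enlarges them, which favours the single large droplet of white fat.

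All 10 genes passed the filter on low counts in each comparison. The lowest count in any mouse was 76 for Plin5, whereas Abhd5 had at least 846 and the remaining genes at least 2420. Total counts per mouse ran from 8668279 to 11720458 in inguinal WAT on chow, from 17572752 to 25680411 in inguinal WAT on HFD and from 8042591 to 10522554 in BAT, so that inguinal WAT on HFD was measured most deeply. Together the 10 genes took a median of 1.48% of all counts in WT and 1.71% in KI mice on chow, 1.34% and 1.65% in inguinal WAT on HFD, and 0.955% and 1.03% in BAT. Levels of 1 gene are given as CPM, counts scaled to a common library size, after TMM scaling within a tissue and diet, and levels of different genes are set side by side only as RPKM, which also divides by the length of the gene.

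The tissue labels were checked against Ucp1, the uncoupling protein of brown fat, which averaged 4777 CPM in BAT of WT mice and had a median below 1 CPM in every group of inguinal WAT. Adipoq, the adiponectin gene of mature adipocytes, averaged 3024 CPM in WT inguinal WAT on HFD. Mfn2 itself, the edited gene, averaged 182 CPM in WT and 231 CPM in KI animals there (log2 fold change 0.34, adjusted p = 0.0114), which did not pass the threshold of 0.01 used throughout, and its level cannot check the genotype because the edit changes a codon. The share of counts from mitochondrially encoded genes in inguinal WAT on HFD was 5.40 to 14.8% in WT and 2.15 to 3.68% in KI mice, and 14.6 to 18.4% and 10.6 to 12.8% in BAT. Leaving those genes out before scaling changed no call among the 10 genes. Some libraries held RNA of skeletal muscle: the 9 muscle markers summed to 58031 CPM in chow KI mouse 4, and to 1282 to 4784 CPM in 4 of the 16 mice of inguinal WAT on HFD, and they exceeded 1000 CPM in 2 WT mice of BAT. Chow WT mouse 4 stood apart as well, with 3939 CPM over the 12 macrophage markers where the group median was 1186 CPM. Its 8 epithelial markers summed to 156 CPM (group median 1.19 CPM). Lymphocyte markers summed to 1083 CPM in HFD KI mouse 2 of inguinal WAT (group median 44.4 CPM). They reached 717 and 386 CPM in HFD WT mice 2 and 6 (median 68.6 CPM), and 583 CPM in chow KI mouse 3 (median 25.8 CPM). In bulk tissue, fewer cells of a type and less RNA per cell cannot be told apart.

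The genes lie on chromosomes 1, 4, 6, 7, 9 and 17 of build GRCm38, and all are protein-coding. Pnpla2 spans chr7:141455198-141460743 on the plus strand, Lipe chr7:25379527-25398710 and Plin1 chr7:79720218-79732903 on the minus strand. Plin4 (chr17:56100591-56109803) and Plin5 (chr17:56111601-56117596) are direct neighbours on the minus strand, 1797 bases apart, and Plin2 lies at chr4:86648386-86670060 on the minus strand. Mgll (chr6:88724412-88828360, plus strand) and Cidec (chr6:113424634-113435760, minus strand) share chromosome 6, Abhd5 is at chr9:122351608-122381524 on the plus strand, and G0s2 at chr1:193272161-193273217 on the minus strand. Exons of Lipe share 918 bases with the antisense gene 4732471J01Rik, exons of Abhd5 share 950 bases with A730085K08Rik, exons of Mgll 167 bases with Gm26588 and those of Plin4 17 bases with Hdgfl2. The strand setting of the counting was not stated, so reads in these bases cannot be assigned to 1 strand.

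Sequence upstream of the RefSeq start is shown for Pnpla2, called on HFD, for Plin5, called on chow, and for Plin2, whose genotype effect differed between diets and tissues. The window of Lipe, also called on HFD, lies wholly in annotated exon and is not shown. Each window ends at the first annotated exon base or at the start, is written 5′ to 3′ on the strand of the gene, and comes from RefSeq on build GRCm38.p6, at chr7:141454938-141455187 (plus strand) for Pnpla2, chr4:86670061-86670309 (minus strand) for Plin2 and chr17:56117597-56117798 (minus strand) for Plin5. Capitals mark matches, on either strand, to GGGCGG (the GC box of Sp factors), to CCAAT (the box of NF-Y) and to AGGTCA (the hexamer read by nuclear receptors such as the PPARs). For Plin5, 48 bases next to the start and for Plin2 1 base are annotated as exon and are not shown.
Pnpla2: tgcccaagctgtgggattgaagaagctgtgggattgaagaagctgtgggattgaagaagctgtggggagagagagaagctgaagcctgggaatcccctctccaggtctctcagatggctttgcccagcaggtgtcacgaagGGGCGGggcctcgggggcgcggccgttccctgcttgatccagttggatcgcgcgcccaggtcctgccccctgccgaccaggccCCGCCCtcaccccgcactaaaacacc
Plin2: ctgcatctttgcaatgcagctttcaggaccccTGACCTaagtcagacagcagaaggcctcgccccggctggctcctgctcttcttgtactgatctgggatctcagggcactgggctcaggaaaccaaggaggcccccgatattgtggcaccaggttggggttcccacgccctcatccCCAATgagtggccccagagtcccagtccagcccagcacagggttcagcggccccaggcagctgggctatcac
Plin5: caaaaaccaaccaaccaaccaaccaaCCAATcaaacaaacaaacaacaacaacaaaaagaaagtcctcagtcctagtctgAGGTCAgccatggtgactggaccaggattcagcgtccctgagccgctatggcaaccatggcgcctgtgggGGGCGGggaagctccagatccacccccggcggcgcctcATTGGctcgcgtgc
Of 7 motifs searched on both strands in the 250 bases before the start, AGGTCA was found upstream of Plin2, Plin5 and Abhd5, that is 3 of the 10 genes, against 14.0% of all 32851 RefSeq promoter windows of that length. CCAAT occurred upstream of Plin2, Plin4 and Plin5 (33.8% of all windows) and GGGCGG upstream of 5 of the genes, Pnpla2 among them (32.7%). CACGTG occurred before Lipe and Mgll (6.02%). No window of the 10 genes held TATAAA (12.4% of all), TGATGNAA, the letters of the ATF4 and C/EBP composite element (3.45%), or the DR1 element, a degenerate direct repeat of the nuclear receptor hexamer (0.338%). All 10 genes had a window, and for the 4 genes with a pair of listed starts the first was searched.

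Ordered by RPKM, Cidec was the highest of the 10 genes in inguinal WAT, at 1427 ± 191 RPKM (SD, n = 8) in WT mice on HFD, above the next gene, Pnpla2, at 505 ± 71.6 RPKM, without overlap between the mice. Plin4 (389), Lipe (304), Mgll (301), Plin1 (286) and G0s2 (266 RPKM) followed, and each overlapped with its neighbour in the order. Plin2 came next at 162 RPKM, then, each apart from its neighbour, Abhd5 at 17.4 RPKM and Plin5 at 6.14 RPKM. The lipase Pnpla2 was therefore present at a far higher mRNA level than its co-activator, with 0.0329 Abhd5 transcripts per Pnpla2 transcript in the median WT mouse on HFD, and G0s2 mRNA stood at 0.564 per Pnpla2. In BAT of WT mice the order opened with Pnpla2 at 1043 ± 139.8 RPKM (n = 6) and G0s2 at 769 ± 163 RPKM, which overlapped, and Plin5 reached 185 ± 19.6 RPKM, above Plin4 at 107 ± 8.84 RPKM in every mouse.

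**Figure D1:**
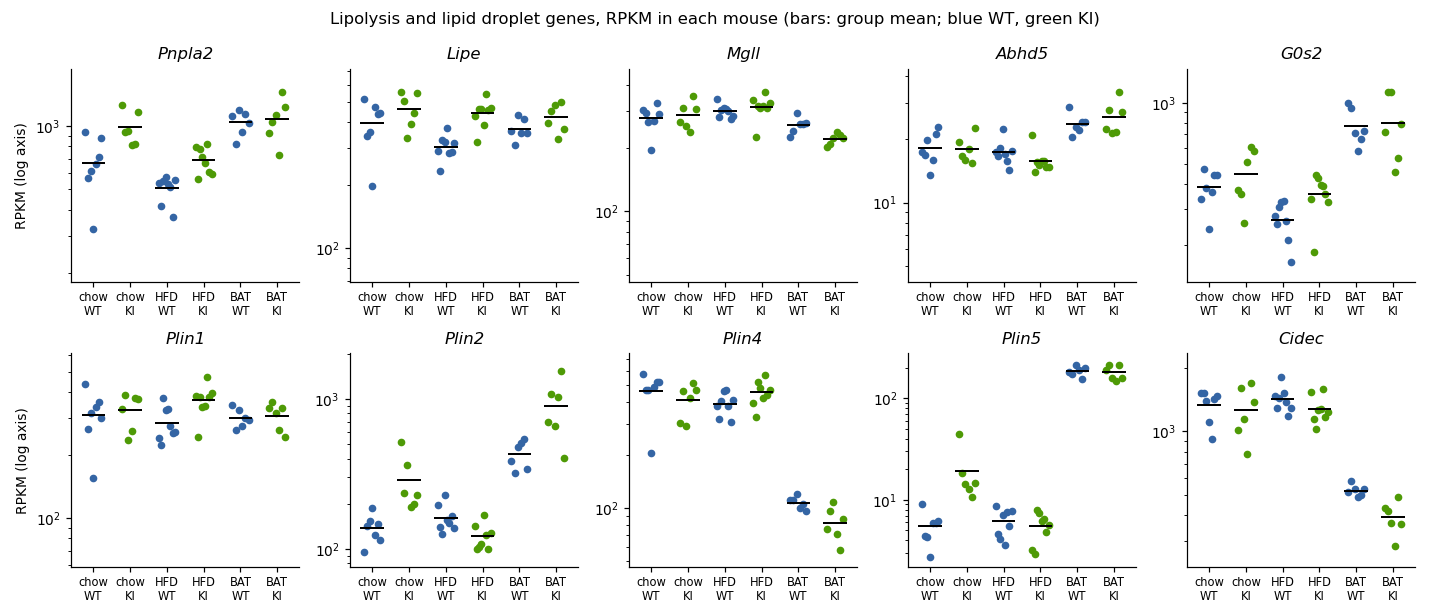
RPKM (log axis) of the 10 genes in each of the 41 mice, by tissue, diet and genotype, with a bar at the group mean. Plin5 lies between 149 and 212 RPKM in BAT and at most at 44.2 RPKM in inguinal WAT, and on chow 6 of 6 KI mice are above every WT mouse for Plin5 and, on this scale, for Plin2.

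The first comparison asks whether the Mfn2 change alters expression of the lipolytic machinery in white fat under HFD. In inguinal WAT on HFD, transcripts of the first lipases in the cascade were higher in KI mice, and the other 8 genes did not pass the test. Pnpla2 lay between 1269 and 1977 CPM in WT mice, with a median of 1830.4, whereas KI mice lay between 2000.3 and 2805 CPM, with a median of 2393. All 8 KI mice lay above all 8 WT mice, the 1 gene of 10 without overlap (4.75% of all genes tested), although on the RPKM scale of all 41 mice KI mouse 2, at 560.2 RPKM, was below the highest WT mouse, at 572 RPKM. The increase was 0.46 ± 0.109 (SE) on the log2 scale, 1.37-fold, with an adjusted p of 0.0054 (edgeR's quasi-likelihood test). Lipe ran from 1561 to 2504 CPM in WT (median 2029.5) and from 2229.5 to 3619 CPM in KI mice (median 3069), with 7 of 8 KI mice above every WT mouse. Its increase was 0.54 ± 0.106, 1.45-fold (adjusted p = 0.00134). Thus 2 of the 10 genes were called, both higher, where 11.5% of the 16471 genes tested were called and 6.21% were called higher. DESeq2, the tool named in the study's methods, called the same 2 genes, with 14.0% of genes called.

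Limits apply to both. For Lipe, the overlapping antisense gene 4732471J01Rik was higher in KI mice too, by 0.69 ± 0.122 on the log2 scale (adjusted p = 0.000445), and how far reads were shared between them was not tested. The call on Pnpla2 was lost in 8 of the 16 fits that left out 1 mouse (WT mice 1, 2, 5 and 6, KI mice 1, 3, 4 and 6), with adjusted p-values of 0.0101 to 0.0187 and log2 fold changes of 0.41 to 0.46, whereas Lipe was called in all 16. Without the 4 mice that had over 1000 CPM of muscle markers, neither passed (log2 fold change 0.41, adjusted p = 0.0569 for Pnpla2, and 0.48, adjusted p = 0.0161 for Lipe), and 1004 genes were called in place of 1886.

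Mgll, which acts last in the cascade, ranged from 1599 to 1980.4 CPM in WT and from 1362 to 2129.8 CPM in KI mice, with a log2 fold change of 0.07 and a 95% interval of -0.09 to 0.24. Abhd5 ranged from 97.0 to 153 CPM in WT and from 98.9 to 141 CPM in KI mice (log2 fold change -0.13, interval -0.30 to 0.05). Both genes overlapped between the genotypes across most of their range. Abhd5 per Pnpla2 transcript was 0.0305 to 0.0398 in WT and 0.0194 to 0.0262 in KI mice on HFD, a ratio within each mouse that does not depend on the scaling, and the ranges did not overlap. Pnpla2 alone did not overlap here either, so the ratio adds no separate support. The ranges overlapped on chow (0.0185 to 0.0419 in WT, 0.0153 to 0.0221 in KI mice) and in BAT (0.0192 to 0.0255 and 0.019 to 0.0297). G0s2 was 162 to 327 CPM in WT (median 268) and 189.9 to 441 CPM in KI mice (median 369), with a log2 fold change of 0.43 ± 0.159 that missed the threshold (adjusted p = 0.0629). G0s2 per Pnpla2, inhibitor to target, had a range of 0.296 to 0.623 in WT mice, which enclosed the 0.329 to 0.598 of KI mice.

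Among the coat proteins on HFD, none passed the threshold. Plin1 ranged from 1175 to 1993 CPM in WT (median 1414) and from 1348 to 2478 CPM in KI mice (median 2007), with a log2 fold change of 0.36 ± 0.125 (adjusted p = 0.0457). Plin2 pointed the other way, at 502 to 914 CPM in WT (median 609.8) and 399.7 to 685 CPM in KI mice (median 464), with 5 of 8 KI mice below every WT mouse and a log2 fold change of -0.41 ± 0.133 (adjusted p = 0.0368). Both would pass a threshold of 0.05 but not the one used here. The ratio of these coats, Plin2 per Plin1, had a median of 0.587 in WT and 0.320 in KI mice. Macrophages also carry Plin2. Their 12 markers summed to 939.8 to 2049.8 CPM in WT and 747 to 2519.9 CPM in KI mice. Of the 12, 2 were called lower (11.5% of all genes called), led by Itgax (log2 fold change -1.44), with a median of -0.42 over the list. The part of macrophages in the Plin2 values was not tested. Without KI mouse 5, which had the highest macrophage sum and also 2703 CPM of muscle markers, Plin2 reached -0.49 and an adjusted p of 0.00905. Without KI mouse 2, which had 1083 CPM of lymphocyte markers, both Plin1 (0.43, adjusted p = 0.00949) and G0s2 (0.52, adjusted p = 0.006) passed. Plin4 (0.22), Plin5 (-0.14) and Cidec (-0.15) had 95% intervals of their log2 fold change that included 0.

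**Figure D2:**
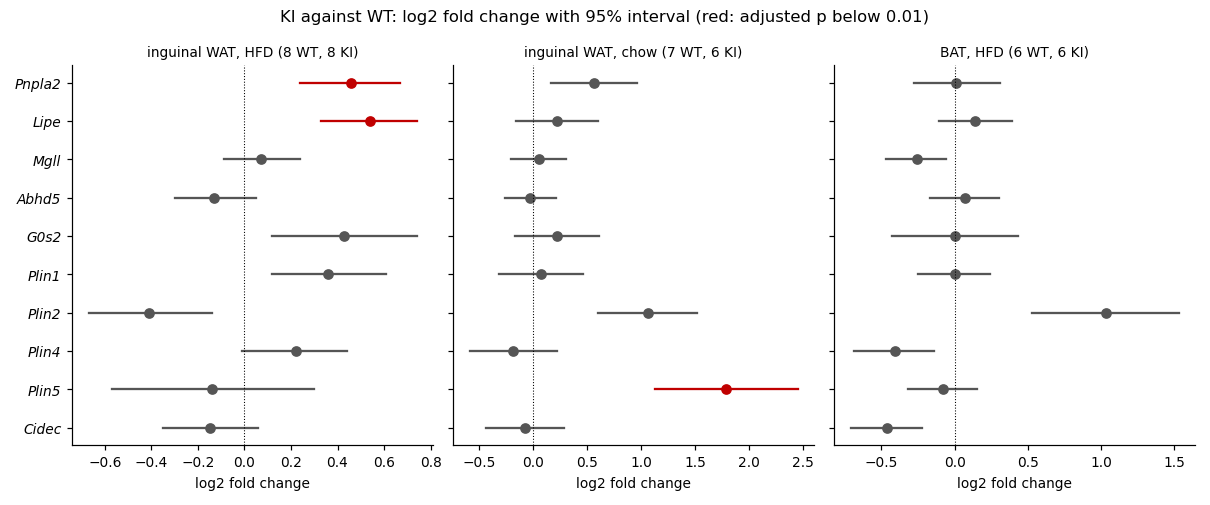
Log2 fold change of KI against WT mice for each gene with its 95% interval in the 3 comparisons of genotype, red where the adjusted p was below 0.01. Pnpla2 and Lipe are red in inguinal WAT on HFD and Plin5 on chow, whereas Plin2 lies at 1.06 on chow, -0.41 in inguinal WAT on HFD and 1.03 in BAT.

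The same comparison on chow asks whether the change in white fat needs HFD. On chow, Plin5 was the gene called, and it was the 1 gene of 10 whose genotypes did not overlap. Plin5 ranged from 6.44 to 20.6 CPM in WT mice (median 13.3) and from 24.0 to 99.6 CPM in KI mice (median 33.1). All 6 KI mice lay above all 7 WT mice, and KI mouse 1, at 99.6 CPM, was above the next at 41.6 CPM. The log2 fold change was 1.79 ± 0.338, 3.46-fold, with an adjusted p of 0.00561. Plin2 ranged from 367 to 745 CPM in WT (median 544) and from 731 to 1959.7 CPM in KI mice (median 893), with 5 of 6 KI mice above every WT mouse. Its log2 fold change of 1.06 ± 0.236, 2.09-fold, had an adjusted p of 0.0124 and so missed the threshold. With 1 of 10 called, against 3.23% of the 14629 genes tested (1.96% called higher), and 1 of 10 without overlap, against 4.32% of all genes, the count rests on a single gene. DESeq2 called Plin2 as well as Plin5, with 6.69% of all genes called.

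The Plin5 call on chow sat near the threshold. It was lost without WT mouse 2, 3, 5, 6 or 7 or KI mouse 2 (adjusted p 0.0116 to 0.0152, log2 fold change 1.74 to 1.83) and without the filter on low counts (adjusted p = 0.017), while without KI mouse 4, the library with muscle RNA, it was 1.89 (adjusted p = 0.00604). Over all 13 fits that left out 1 mouse, the log2 fold change of Plin5 ran from 1.37 to 1.96. Without chow WT mouse 4 and KI mouse 4 together, Plin5 was lost (1.77, adjusted p = 0.0102) and Plin2 passed (1.26, adjusted p = 0.00541). Plin2 passed without WT mouse 4, KI mouse 4 or KI mouse 5, at adjusted p-values of 0.00816 to 0.00936.

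Brown adipocyte markers moved in the same mice. The 10 markers summed to 112 to 242 CPM in WT (median 174) and to 265 to 1134 CPM in KI mice on chow (median 533), without overlap, and KI mouse 1 was highest both here and for Plin5 and Plin2. Of the 7 markers tested, Cidea and Cox8b were called higher (log2 fold changes of 3.02 ± 0.559 and 2.41 ± 0.366), where 1.96% of all genes were. Cidea encodes a droplet protein of brown fat and Cox8b a respiratory chain subunit. Ucp1 and Dio2, which define the active brown adipocyte, had medians below 1 CPM in both genotypes. Skeletal muscle expresses Plin5 too. Its markers summed to 58031 CPM in KI mouse 4, which had 28.9 CPM of Plin5, and the sums were 18.0 to 747 CPM in WT mice and 40.7 to 339 CPM in the other 5 KI mice. The part of brown adipocytes and of muscle in the Plin5 and Plin2 values was not tested.

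**Figure D3:**
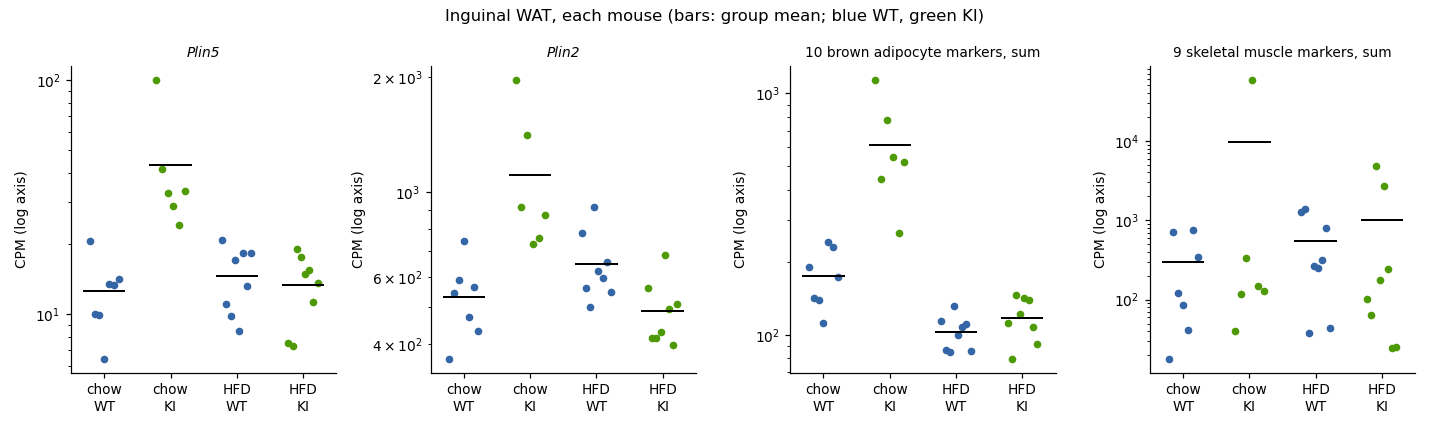
CPM (log axis) of Plin5 and Plin2 and summed CPM of 10 brown adipocyte and 9 skeletal muscle markers in each inguinal mouse, with bars at the group mean. KI mice on chow lie above WT mice for Plin5 and for the brown marker sum, and 1 KI mouse on chow has 58031 CPM of muscle markers.

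None of the lipases, co-factors or remaining coat proteins was called on chow. Pnpla2 ran from 1093 to 3121 CPM in WT (median 2161) and from 2694 to 4134 CPM in KI mice (median 3123), with 3 of 6 KI mice above all WT mice. Its log2 fold change, 0.56 ± 0.205 with an interval of 0.16 to 0.96 (adjusted p = 0.103), was of similar size to that on HFD but carried a larger error. Lipe (0.22, interval -0.16 to 0.60), G0s2 (0.22, -0.17 to 0.61), Mgll (0.05, -0.21 to 0.30), Plin1 (0.07, -0.32 to 0.46), Cidec (-0.08, -0.44 to 0.28) and Plin4 (-0.19, -0.59 to 0.22) had intervals that included 0. The same was true of Abhd5 at -0.03 (interval -0.26 to 0.21). Plin4, the neighbour of Plin5 on chromosome 17, was thus not called beside it.

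In BAT on HFD the question is whether the same genes respond in the brown depot. None of the 10 genes was called by edgeR's quasi-likelihood test, where 1.83% of 13267 genes were, although 4 of 10 had an unadjusted p below 0.05 and DESeq2 called 2, Plin2 and Cidec, with 4.67% of all genes called. Plin2 ranged from 908 to 1436 CPM in WT (median 1182) and from 1055 to 3999 CPM in KI mice (median 2354). In 5 of 6 KI mice it lay above every WT mouse, and the 1 that did not was KI mouse 6. The log2 fold change was 1.03 ± 0.256, 2.05-fold (adjusted p = 0.0258), and without KI mouse 6 it was 1.20 (adjusted p = 0.00283). Cidec ranged from 694 to 863 CPM in WT and from 413 to 664 CPM in KI mice. All 6 KI mice were below all 6 WT mice, the 1 gene of 10 without overlap (3.56% of all genes tested), with a log2 fold change of -0.46 ± 0.126 (adjusted p = 0.0358). Plin4 (-0.41 ± 0.14, adjusted p = 0.0807) and Mgll (-0.26 ± 0.105, adjusted p = 0.135) each had 5 of 6 KI mice below every WT mouse. Mgll shares exon bases with Gm26588, whose log2 fold change was -0.69 (adjusted p = 0.0275).

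Pnpla2 in BAT was 2006 to 2758 CPM in WT and 1719 to 3216 CPM in KI mice, a log2 fold change of 0.01 with an interval of -0.28 to 0.31. For Lipe the value was 0.14 (interval -0.11 to 0.39), for Abhd5 0.07 (-0.17 to 0.30) and for Plin5 -0.08 (-0.32 to 0.15). The genotypes overlapped for all of these. The mean of G0s2 was 522 CPM (WT) against 523 CPM (KI), and that of Plin1 was 1084 against 1082 CPM.

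Tests of the difference itself set Plin2 apart. Between the diets in inguinal WAT, the effect of genotype on Plin2 differed by -1.46 ± 0.269 on the log2 scale (HFD minus chow, adjusted p = 0.00299), the 1 call among the 10 genes where 0.632% of 17400 genes were called. Plin5 differed by -1.91 ± 0.415, with an adjusted p of 0.0111 that just missed the threshold, and it passed without HFD WT mouse 3, 5 or 7, chow WT mouse 1, or chow KI mouse 4 or 5 (-1.93 to -2.08). Over all 29 fits that left out 1 mouse, the Plin5 difference ran from -2.08 to -1.48. Between the tissues on HFD, the effect on Plin2 differed by 1.47 ± 0.286 (BAT minus inguinal WAT, adjusted p = 0.00141), again the 1 call of 10, with 2.82% of 17214 genes called. The estimated genotype effect on Plin2 was positive on chow and in BAT and negative in inguinal WAT on HFD. On its own, none of these effects was called by edgeR (adjusted p = 0.0124, 0.0258 and 0.0368), so that the tests show a difference between them and not the sign of each. Both differences were called in every fit that left out 1 mouse. Both use the same inguinal mice on HFD and are not independent of each other. Without the mice over 1000 CPM of muscle markers, the diet difference was -1.60 (adjusted p = 0.00692) and the tissue difference 1.39 (adjusted p = 0.0195). For Pnpla2 and Lipe the difference between diets was -0.09 (interval -0.54 to 0.36) and 0.33 (interval -0.10 to 0.76), so that a call on HFD beside none on chow does not show that diet mattered. Between tissues it was -0.41 for Pnpla2 and -0.36 for Lipe, with adjusted p-values of 0.198 and 0.202.

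Diet and tissue were compared directly within each genotype. Counts of the tissues and diets were deposited as separate sets, and no label names a batch. Diet or tissue therefore cannot be told apart from any other difference between these sets. Among WT mice, none of the 10 genes was called between HFD and chow by edgeR or DESeq2, where 28.2% of all genes were called by edgeR, and 3 of 10 had an unadjusted p below 0.05: G0s2 (log2 fold change -0.52), Pnpla2 (-0.40) and Lipe (-0.37). These 3 passed without chow WT mouse 4, at -0.61, -0.53 and -0.49 (adjusted p-values of 0.00742, 0.00179 and 0.00241), and G0s2 also without HFD KI mouse 2 (adjusted p = 0.00877). Among KI mice 2 of 10 were called, Plin5 at -1.74 ± 0.295 (adjusted p = 2.74e-05) and Plin2 at -1.22 ± 0.193 (adjusted p = 9.18e-06), both lower on HFD, where 30.6% of all genes were called and 15.4% called lower. On HFD, Plin5 in KI mice ran from 2.95 to 7.88 RPKM, below the 10.6 to 44.2 RPKM of KI mice on chow. How many of all genes separate the diets in this way was not counted. Pnpla2 (-0.49, adjusted p = 0.0167) passed without HFD WT mouse 7, HFD KI mouse 1 or 6, or chow WT mouse 4. Of the 10 brown adipocyte markers, 6 were called lower in the same contrast, with a median of -2.06, and their part in the Plin5 and Plin2 values was not tested. Both comparisons share the chow or HFD mice used above and add no separate support.

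**Figure D4:**
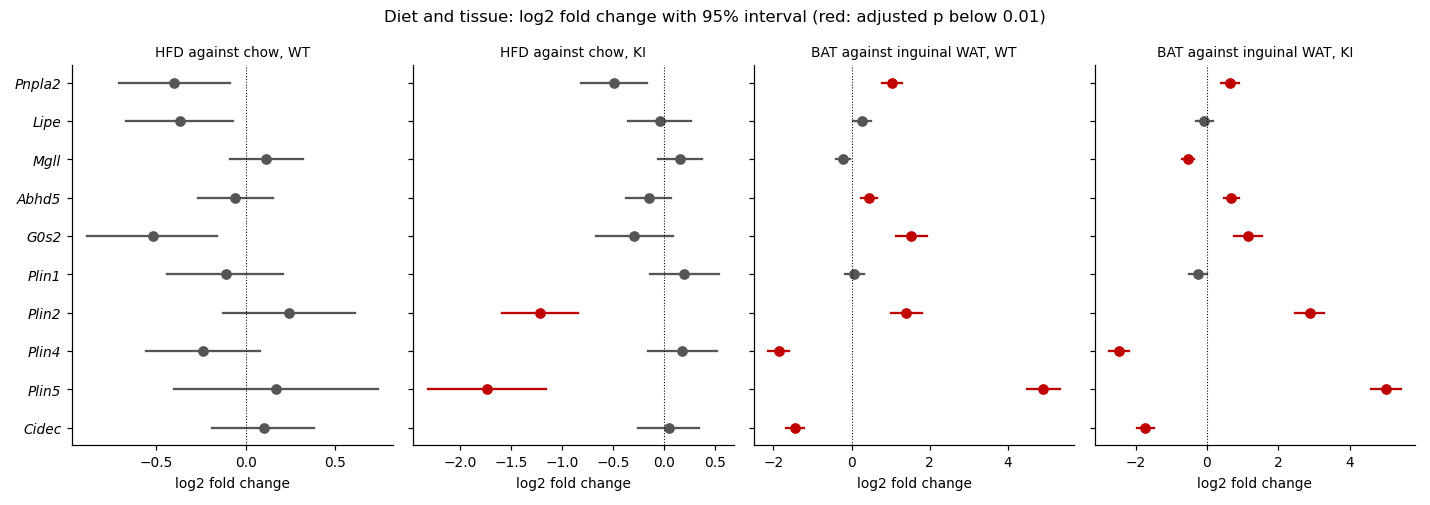
Log2 fold change of HFD against chow in inguinal WAT and of BAT against inguinal WAT on HFD, within WT and KI mice, with 95% intervals, red where the adjusted p was below 0.01. Plin5 lies at 4.91 in WT and 5.00 in KI mice for BAT against inguinal WAT, and Plin2 is at 1.40 in WT and 2.88 in KI mice.

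Between BAT and inguinal WAT on HFD, most of the 10 genes differed. In WT mice 5 were higher in BAT: Plin5 by 4.91 ± 0.214 on the log2 scale (30.2-fold), G0s2 by 1.53 ± 0.197, Plin2 by 1.40 ± 0.200, Pnpla2 by 1.04 ± 0.132 and Abhd5 by 0.45 ± 0.106. Plin4 (-1.86 ± 0.137) and Cidec (-1.45 ± 0.119) were lower. The 7 calls compare with 55.9% of all genes called, 26.9% higher and 29.0% lower, so the number of calls is near what the tissues show in general. In KI mice the same 7 were called in the same direction and Mgll was added as lower (-0.52 ± 0.0902), where 59.1% of all genes were called, 28.4% higher and 30.6% lower. Without the mice over 1000 CPM of muscle markers Abhd5 was lost in WT mice (0.41, adjusted p = 0.0121), and DESeq2 called Mgll in WT mice as well (-0.25, adjusted p = 0.0034). Lipe and Plin1 were not called in either genotype, with intervals of 0.05 to 0.51 and -0.18 to 0.32 in WT mice. The largest gap between the genotypes was for Plin2, 2.65-fold in WT and 7.35-fold in KI mice. The median log2 fold change of all genes was -0.09 in WT and -0.12 in KI mice with TMM scaling and 0.00 with DESeq2, against which these values should be read.

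Other genes of the pathway were followed as lists. Receptors and enzymes of the cAMP signal that drives lipolysis had 20 tested members in inguinal WAT on HFD, of which 2 rose and 4 fell, where 11.5% of all genes were called and 6.21% called higher. Hcar1, the antilipolytic lactate receptor, showed the largest fall, with a log2 fold change of -1.66 ± 0.199. Hcar1 was lower on chow (-1.28 ± 0.149) and in BAT (-2.26 ± 0.321) as well, where it was the 1 call by edgeR among 20 and 19 tested (3.23% and 1.83% of all genes called). In those comparisons 5 and 8 of the list had an unadjusted p below 0.05, and DESeq2 called 1 and 4. Of 10 other acylglycerol and ester hydrolases tested on HFD, 3 fell and none rose (11.5% of all genes called), the largest fall being in Pnpla3, a lipase related to Pnpla2, at -2.21 ± 0.236. On chow none of the 9 tested was called by edgeR (4 had an unadjusted p below 0.05, and DESeq2 called 2). In BAT 1 of 9 was called (1.83% of all genes called), Abhd6, a monoacylglycerol lipase, at 0.93 ± 0.113.

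Of 15 other lipid droplet proteins tested on HFD, 2 were higher and 1 was lower (11.5% of all genes called), with Cidea at 1.55 ± 0.269 and Bscl2, the seipin gene of droplet formation, at -0.91 ± 0.095. Cidea was the 1 call of 14 on chow by edgeR (4 had an unadjusted p below 0.05, and DESeq2 called 1), where 3.23% of all genes were called. None of 14 was called in BAT by edgeR (5 had an unadjusted p below 0.05, and DESeq2 called 1), where 1.83% of all genes were. Of 8 tested genes that handle the products of lipolysis, 4 fell on HFD (11.5% of all genes called), with a median log2 fold change of -0.44 over the list against 0.01 over all genes, and Acsl1, which activates long-chain fatty acids, fell by 1.13 ± 0.174. None of these 8 was called on chow or in BAT by edgeR or DESeq2, where 2 and 1 had an unadjusted p below 0.05. The 11 regulators of lipolysis gene transcription, Pparg, Foxo1 and Irf4 among them, held no call by edgeR in the 3 comparisons of genotype. They had 6, 4 and 3 members with an unadjusted p below 0.05 on HFD, on chow and in BAT, and DESeq2 called 1, 2 and 1. Over the 10 lipolysis and droplet genes the median log2 fold change was 0.15 on HFD and 0.14 on chow, with 6 and 7 genes above 0.

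Marker lists of the cells in the samples moved as follows in inguinal WAT on HFD, where 11.5% of all genes were called and 6.21% called higher. Of 11 adipocyte markers 1 rose, Slc2a4, and 3 fell, led by Retn (-1.05 ± 0.135), and the summed list was 32422 to 43717 CPM in WT and 29205 to 39407 CPM in KI mice. Of 7 brown adipocyte markers tested 2 rose, led by Cidea, and 2 fell, led by Otop1 (-1.49 ± 0.173). All 7 had an unadjusted p below 0.05 and DESeq2 called 7. The median log2 fold change of this list was 0.55, against 0.01 over all genes. Of 9 fibroblast and progenitor markers 1 fell, Lum (-1.39 ± 0.2). Of the lymphocyte, endothelial, skeletal muscle and epithelial markers, 9, 7, 9 and 1 were tested in that comparison, and edgeR called none. An unadjusted p below 0.05 was held by 0, 2, 0 and 0, and DESeq2 called 1, 0, 0 and 0. Their median log2 fold changes were -0.04, -0.12, 0.67 and -0.16. Lymphocyte sums were uneven all the same, from 51.1 to 717 CPM in WT and from 35.2 to 1083 CPM in KI mice. Retn was also the 1 of 11 adipocyte markers called by edgeR on chow (-1.23 ± 0.244) and in BAT (-1.84 ± 0.31), where DESeq2 called 3 and 2. Of all genes, edgeR called 3.23% on chow and 1.83% in BAT. Pi16 (-1.62 ± 0.257) was the 1 of 9 fibroblast and progenitor markers called by edgeR in BAT, where 7 had an unadjusted p below 0.05, DESeq2 called 3 and the median of the list was -0.67. The part of these cells in the lipolysis genes was not tested.

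Within the 16 mice of inguinal WAT on HFD, the gene outside the 10 that followed each of them most closely was found by Pearson's r of log2 CPM centred on the genotype mean, over 10173 genes with a mean of at least 10 CPM. For Pnpla2 this was Cidea (r = 0.88, Spearman's rho 0.84, r without the 2 mice farthest from the median 0.83). Cidea averaged 23.1 CPM among KI animals but only 7.89 CPM among their WT littermates, which lies below the limit of 10 CPM. For Lipe the closest gene was Blcap (0.89, 0.84 and 0.76). Plin1 was followed by Adhfe1 (0.92, 0.93 and 0.89), Plin2 by Mmp19 (0.92, 0.89 and 0.84) and Plin4 by Trarg1, a protein of glucose transporter traffic (0.92, 0.81 and 0.87). G0s2 went with Uck1 (0.90, 0.85 and 0.87), Abhd5 with Osbpl11 (0.86, 0.77 and 0.80), Plin5 with Dgcr2 (0.87, 0.80 and 0.79), Cidec with Dnajb4 (0.87, 0.85 and 0.76) and Mgll with Mst1r (0.89, 0.72 and 0.64). Each is the best of many candidates over the same 16 mice, and the values describe these mice only.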

How the data were processed

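Polyadenylated RNA was sequenced. The authors trimmed reads with cutadapt, aligned them with STAR to GRCm38 and deposited raw counts per gene from featureCounts. Versions, annotation release and strand setting are not given in the sources used here. For inguinal WAT on HFD, 2 technical libraries per mouse were deposited as 1 column of counts per mouse, and how they were joined is not stated. The tables also hold gene lengths. Depth per mouse is given with the results. Intervals give the uncertainty of a difference between group means, estimated from the spread between mice, and not the range of single mice.

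Entries without a count or length (1884 of 54838) were left out, and entries that share a symbol hold identical counts and were used once. KI and WT mice were compared within each tissue and diet with edgeR 4.0.16 in R 4.3.3 (TMM, filterByExpr, robust quasi-likelihood test), and a gene was called at a Benjamini-Hochberg adjusted p below 0.01 over all genes tested. Interactions and the diet and tissue contrasts came from fits of 4 groups. Tissues were taken as independent since the labels do not tie their mice. The standard error (SE) of a log2 fold change was derived from its F statistic, and 95% intervals assume a normal distribution. RPKM used 1 normalization of all 41 mice. The fits were tested on simulated data. Samples were grouped by the labels. No 2 libraries agreed within sampling noise. Text names all 10 genes, the called gene with the largest rise and fall in each other list, and the gene most like each, except 1 gene that is not reported here. The genes and the 13 other lists were chosen with earlier results of these data known.

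Each comparison was repeated with DESeq2 1.42.0, with size factors by RLE, without a filter and in a joint fit of all 6 groups. The 3 comparisons of genotype were also repeated with a minimum of 10 counts per mouse, leaving out mitochondrially encoded genes, with a replicate block, with thresholds of 0.05 and 0.001, and omitting every mouse in turn. After seeing the data, mice with high muscle markers, chow WT 4 with KI 4, and each mouse in the 4-group fits were left out too.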

Additional observations from a re-analysis of the deposited data

Results flagged for a closer look

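The effect of genotype on Plin2 differed between the diets (HFD minus chow, inguinal WAT) by -1.46 in log2 units and between tissues on HFD by 1.47 (BAT minus inguinal WAT), each by a test of the difference across all genes.

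Of 60 sets of a gene and a group of mice, 5 held a mouse far from the rest by Dixon's test, where chance gives about 1 in 20. In inguinal WAT on HFD these were Mgll in KI mouse 2, at 1362 CPM against 1791 CPM in the next lowest mouse, Abhd5 in WT mouse 4, at 153 CPM against 123 CPM in the next highest, and Abhd5 in KI mouse 1, at 141 CPM against 108 CPM. On chow they were Plin4 in WT mouse 4, at 1467 CPM against 3232 CPM in the next lowest, and Plin5 in KI mouse 1, at 99.6 CPM against 41.6 CPM in the next highest.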

How the results depend on the processing

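The number of lipolysis and droplet genes called in inguinal WAT on HFD, 2 as reported, was 1 in a single fit of all 6 groups (Pnpla2 was lost, adjusted p = 0.034), 0 without the mice with high muscle markers, 4 at an adjusted p below 0.05, 0 below 0.001, and 1 to 4 with 1 mouse left out. On chow it was 1 as reported, 2 by DESeq2, in the 6-group fit, without the mouse with high muscle markers and below 0.05, 0 without the low-count filter and below 0.001, 1 without chow WT 4 and KI 4 (Plin2 in place of Plin5), and 0 to 2 with 1 mouse left out. In BAT it was 0 as reported, 2 by DESeq2 and below 0.05, 1 in the 6-group fit (Plin2), and 0 to 1 with 1 mouse left out. For the diet difference it was 1, and 2 by DESeq2, with RLE size factors and in the 6-group fit (Plin5 was added), with 1 to 2 when 1 mouse was left out. For the tissue difference it was 1 in all 28 such fits and 0 without the mice with high muscle markers. For HFD against chow in WT mice it was 0, 3 without chow WT 4 and KI 4, and 0 to 3 with 1 mouse left out, and in KI mice 2 to 3. For BAT against inguinal WAT it was 7 in WT and 8 in KI mice in all fits with 1 mouse left out, and in WT mice 6 without the mice with high muscle markers and 8 by DESeq2. Over all genes, the 1886 calls in inguinal WAT on HFD became 1242 in the 6-group fit, 1004 without the mice with high muscle markers, 3448 below 0.05 and 880 below 0.001, and 1460 to 2338 with 1 mouse left out. The 472 on chow became 1107 by DESeq2, 1088 in the 6-group fit, 1252 and 125 at the other thresholds, and 288 to 497. The 243 in BAT became 717 by DESeq2, 834 in the 6-group fit, 952 and 59, and 134 to 313. The 110 for the diet difference became 409 by DESeq2, 33 without the mice with high muscle markers, and 69 to 269, and the 485 for the tissue difference 848, 199, and 362 to 570. Diet contrasts kept 4271 to 5232 calls in WT and 4484 to 5526 in KI mice, and tissue contrasts 9084 to 9901 and 9658 to 10260. The causes of these changes in number were not tested. No call among the 10 genes was reversed in these settings.

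With the mouse number as a replicate block, the calls were again 2 of the 10 genes for inguinal WAT on HFD, 1 for chow and 0 for BAT, with 1545, 127 and 363 genes in all. Deviations of same-numbered mice correlated between -0.25 and 0.73 on HFD, -0.30 and 0.19 on chow and -0.08 and 0.46 in BAT (median 0.12), where 3 of 6 same-numbered pairs were each other's best match. Since not every pair correlated above 0.1 in any of the 3, the numbers were not taken to pair the mice. Precision was limited mainly by the spread between mice, with an SD of 64.9% of the mean for Plin5 in chow KI mice. The lowest Plin5 library held 76 counts.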

Other observations

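Ratios between coat proteins within a mouse add values that belong to no test above. Plin4 per Plin1, on RPKM, had a median of 1.41 (WT) and 1.22 (KI) in inguinal WAT on HFD, 1.44 and 1.25 on chow, and 0.357 and 0.271 in BAT. Cidec per Plin1 had medians of 5.01 and 3.56 in inguinal WAT on HFD, 4.44 and 3.95 on chow, and 1.72 and 1.23 in BAT. In BAT the WT mice ran from 1.49 to 2.20 and the KI mice from 1.09 to 1.47, without overlap, as for Cidec alone. Plin5 per Plin1 was 0.0136 to 0.0208 in WT and 0.0281 to 0.133 in KI mice on chow, while in BAT it was 0.521 to 0.691 and 0.503 to 0.641. Lipe per Pnpla2 was 0.543 to 0.779 in WT and 0.535 to 0.789 in KI mice on HFD, and 0.504 to 0.721 and 0.355 to 0.537 on chow.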
